A study of Mus musculus with 24 samples.

Results

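The genes described here are the 10 members of a list for iron uptake, storage and export, taken from the 32288 features of the count tables by gene symbol: *Tfrc*, *Trf*, *Slc11a2*, *Fth1*, *Ftl1*, *Slc40a1*, *Heph*, *Cp*, *Aco1* and *Ireb2*. They were chosen by their known function and with earlier results of these data in view. The rule that lists them holds gene symbols and no threshold on a measured value. All 10 were listed in all 24 libraries. Single nuclei came from 6 mutant mice homozygous for the ret allele of *Pdgfb* (strain B6.Pdgfbtm3Cbet, *Pdgfb* ret/ret, a loss of the retention motif that holds PDGF-B near the endothelium) and 6 control mice heterozygous for it (*Pdgfb* ret/wt), so every mouse carried at least 1 ret allele. Each mouse gave a library of the calcification-prone deep brain (pallidum, interbrain, midbrain and pons) and a library of the cortex (cerebral cortex and hippocampus). The allele is constitutive, so no cell type was targeted. Mice 1 to 3 of each genotype were 5 months old plus 3, 0 and 18 days, mouse 4 was 4 months and 24 days old, mutant 5 and control 6 were 4 months and 7 days old, and control 5 and mutant 6 were 4 months and 9 days old. All were female except control 6, and all had been perfused with saline.

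Iron reaches the brain mainly through the endothelium, where the transferrin receptor encoded by *Tfrc* binds transferrin (*Trf*) and takes it in, and the transporter encoded by *Slc11a2* (DMT1) moves iron out of the endosome. Iron not in use is kept in ferritin, built from heavy (*Fth1*) and light (*Ftl1*) chains, and leaves cells through ferroportin (*Slc40a1*), helped by the copper ferroxidases hephaestin (*Heph*) and ceruloplasmin (*Cp*). Oligodendrocytes are the iron-rich cells of the adult brain and its main source of transferrin, and microglia take up and release iron. The iron regulatory proteins, encoded by *Aco1* and *Ireb2*, bind stem-loops called iron-responsive elements when iron is low. Bound in a 5′ untranslated region they block translation, and bound in the 3′ untranslated region of *Tfrc* they keep the transcript from being degraded. A change in iron therefore alters the transcript level of *Tfrc*, while ferritin and ferroportin are controlled in part at translation, which RNA counts do not measure.

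The stem-loops that tie these genes together are shown as 30-base sites read 5′ to 3′ from GENCODE M21 transcripts (mm10), with the 6-base loop in capitals. The search asked for C, any 5 bases, the loop CAGTGN, and 5 bases pairing with the first 5 (G pairing with T allowed), in the sense of the transcript only. Of the 10 genes, 4 held a match, 3 of them in the 5′ untranslated region and *Tfrc* with 4 sites in the 3′ untranslated region.
*Fth1* (5′, loop at chr19:9982744-9982749, + strand): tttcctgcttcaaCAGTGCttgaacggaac
*Ftl1* (5′, loop at chr7:45459790-45459795, − strand): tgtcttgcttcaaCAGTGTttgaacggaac
*Slc40a1* (5′, loop at chr1:45925476-45925481, − strand): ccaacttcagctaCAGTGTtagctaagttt
*Tfrc* (3′, loop at chr16:32631231-32631236, + strand): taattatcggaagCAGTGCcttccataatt
*Tfrc* (3′, loop at chr16:32631610-32631615, + strand): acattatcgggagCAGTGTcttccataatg
*Tfrc* (3′, loop at chr16:32631675-32631680, + strand): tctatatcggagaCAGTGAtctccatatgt
*Tfrc* (3′, loop at chr16:32631722-32631727, + strand): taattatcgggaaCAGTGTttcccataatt
The same pattern was found in the 5′ untranslated region of 31 of 20938 genes (0.148%) and in the 3′ untranslated region of 142 of 20908 genes (0.679%). A match is a description of the letters, and the other 6 genes held none in this form. An element with a mismatch or an unpaired base among the 5 pairs would not have been found, so the search does not show that a gene lacks one.

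The genes lie on 9 chromosomes of mm10. *Tfrc* spans chr16:32608920-32632794 (+ strand), *Trf* chr9:103204001-103230444 (−), *Slc11a2* chr15:100387898-100425072 (−), *Fth1* chr19:9980598-9985098 (+), and *Ftl1* chr7:45457944-45459884 (−). *Slc40a1* spans chr1:45908068-45926523 (−), *Heph* chrX:96455359-96574485 (+), *Cp* chr3:19957054-20009145 (+), *Aco1* chr4:40143081-40198338 (+), and *Ireb2* chr9:54863789-54912530 (+). *Slc11a2*, *Heph* and *Cp* overlap *Gm5475*, *Hsf3* and *Hps3* on the opposite strand. The features also list related ferritin genes (*Fthl17a* to *Fthl17f*) and a pseudogene of the light chain (*Ftl1-ps1*), and whether reads of *Fth1* or *Ftl1* were shared with them was not tested.

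The libraries held 23625232 to 96459036 UMIs (unique molecular identifiers, 1 per captured RNA molecule), and 204925 nuclei passed the limits on genes and mitochondrial share. Nuclei were clustered and each cluster was named from marker genes, so every class name below stands for nuclei like that cell type. In the deep brain, 62082 nuclei were neurons, 30202 oligodendrocytes, 10437 astrocytes, 3321 oligodendrocyte precursors (OPC), 2275 microglia, 1438 fibroblasts, 671 endothelial, 263 macrophages and 205 mural. Levels are UMIs of a gene per 1000000 UMIs of a class in a library (CPM). The 8 endothelial markers ran from 415 CPM (*Cdh5*) to 4181 CPM (*Slco1a4*) in deep brain endothelial nuclei, with *Cldn5* at 1260, and were under 5 in neurons and in oligodendrocytes. Cortical libraries were less even: the median UMIs per nucleus ran from 804 to 8054, against 3547 to 7314.5 in the deep brain, 40603 of 79967 cortical nuclei carried markers of several classes and were set aside, and 136 endothelial nuclei were left. No pair of libraries shared more than 220 barcodes, or 1.985% of the smaller library.

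Levels are given as mean ± SD over the libraries with at least 10 nuclei of the class. Introns were counted, so a level was compared between classes for 1 gene and never between genes. The classes are clusters of the same nuclei, so differences between classes have no test. Over all 24 libraries, *Trf* had the most UMIs of the 10 genes, 419330 in total and 3297 to 36280 per library, and *Slc40a1* the fewest, 7460 in total and 99 to 507 per library.

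**Figure D1:**
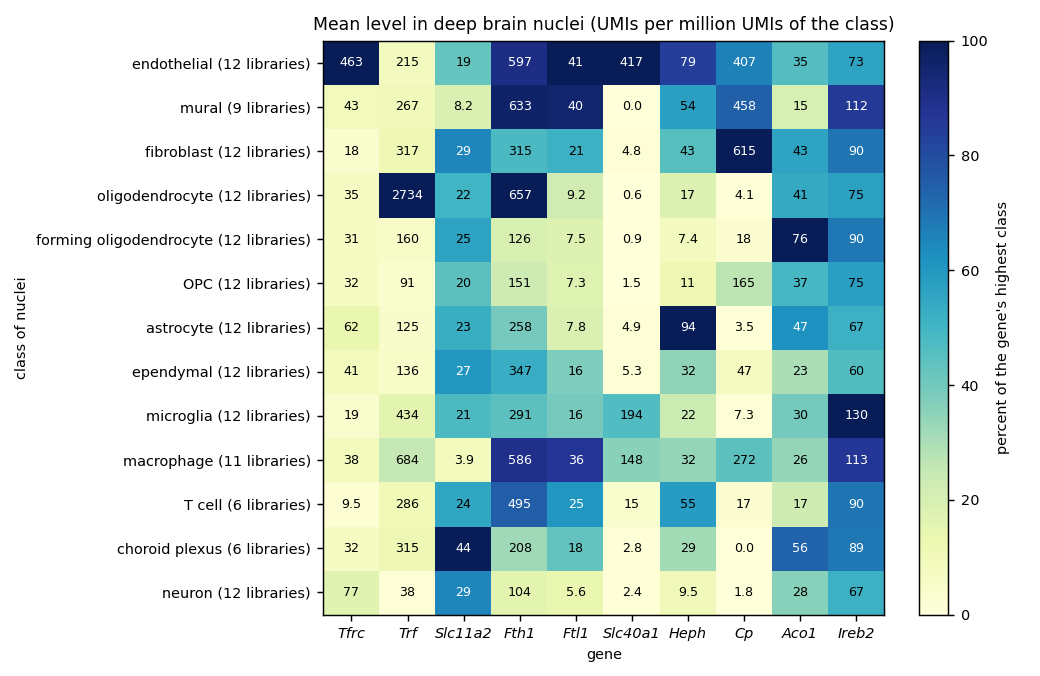
Mean level (CPM, printed in each cell) of the 10 genes in 13 classes of deep brain nuclei, with the number of libraries behind each class, shaded as the percent of the gene's highest class. *Tfrc* and *Slc40a1* were highest in endothelial nuclei (463 and 417), *Trf* in oligodendrocytes (2734), *Heph* in astrocytes (93.7) and *Cp* in fibroblasts (616).

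Among the uptake genes, the transferrin receptor gene *Tfrc* was highest in endothelial nuclei, at 463 ± 224 CPM (n = 12) in the deep brain. Neurons followed at 77.1 ± 6.75, astrocytes at 62.5 ± 6.11, mural nuclei at 42.5 ± 48.6 (n = 9), oligodendrocytes at 34.8 ± 4.17 and microglia at 18.8 ± 7.93. The lowest endothelial library (219) lay above the highest neuronal library (86.4), so these 2 neighbours in the order did not overlap. By number of molecules, neurons held 78.0% of the *Tfrc* UMIs of the deep brain and endothelial nuclei 1.20%. These shares also reflect the size of a class: over all genes neurons held 665563569 UMIs and endothelial nuclei 1782403. A *Tfrc* UMI was found in 42.0% of endothelial and 48.9% of neuronal nuclei as sequenced, and in 28.4% and 7.52% after each nucleus was thinned to 1000 UMIs. Their median depths were 1914 and 9803.5 UMIs, and in fibroblasts, a class with a low level (18.1 ± 6.36), the shares were 5.22% and 1.63% at a median of 2889.

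Transferrin itself was highest in oligodendrocytes. *Trf* was at 2734 ± 419 CPM in deep brain oligodendrocytes and 3058 ± 433 in cortical ones (n = 12 each), and deep brain oligodendrocytes held 75.4% of its UMIs there. In the deep brain, macrophages were at 684 ± 278 (n = 11), microglia at 434 ± 74.6, fibroblasts at 317 ± 71.6, choroid plexus at 315 ± 128 (n = 6), endothelial nuclei at 215 ± 80.5, astrocytes at 125 ± 25.8 and neurons at 38.2 ± 9.93. Forming oligodendrocytes, the stage between precursor and mature cell, were at 160 ± 39.3, and precursors at 90.7 ± 20.0.

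Free RNA from broken cells can enter any droplet, so other oligodendrocyte genes were read in the same nuclei of the deep brain. *Mag*, a myelin-associated glycoprotein gene, was at 1381 CPM in oligodendrocytes, 66.0 in microglia, 96.2 in macrophages, 32.9 in fibroblasts, 35.0 in astrocytes and 12.1 in neurons (all nuclei of a class summed). *Mog*, a myelin surface protein gene, was at 1144 in oligodendrocytes, 28.8 in microglia, 43.2 in macrophages, 20.7 in fibroblasts, 21.5 in astrocytes and 6.75 in neurons. From astrocytes to microglia *Trf* thus went from 125 to 434 CPM while *Mag* went from 35.0 to 66.0 and *Mog* from 21.5 to 28.8, and the part of free RNA in the low *Trf* levels was not tested.

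In the deep brain the endosomal transporter gene *Slc11a2* was at 44.2 ± 18.5 CPM in choroid plexus (n = 6), 28.7 ± 1.20 in neurons, 22.2 ± 2.50 in oligodendrocytes, 21.0 ± 8.82 in microglia and 18.8 ± 9.46 in endothelial nuclei (n = 12 each). It was at 8.19 ± 16.8 in mural nuclei (n = 9) and 3.87 ± 9.14 in macrophages (n = 11), each from 2 UMIs in all, so its level there is hardly measured.

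The storage genes differed in where they peaked. *Fth1* was at 657 ± 132 CPM in oligodendrocytes, 633 ± 358 in mural nuclei, 598 ± 127 in endothelial nuclei and 586 ± 208 in macrophages, which overlapped, and it was at 291 ± 73.4 in microglia, 258 ± 49.1 in astrocytes and 104 ± 20.6 in neurons. *Ftl1* was at 41.4 ± 16.1 in endothelial nuclei, 39.6 ± 26.0 in mural nuclei and 36.1 ± 32.4 in macrophages, against 16.2 ± 8.25 in microglia, 9.19 ± 2.76 in oligodendrocytes and 5.65 ± 0.791 in neurons. Oligodendrocytes were thus in the top group for the heavy chain and not for the light chain.

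The level of *Slc40a1*, the gene of the only known iron exporter, was high in few classes. It was at 417 ± 144 CPM in endothelial nuclei, 194 ± 34.1 in microglia (265 ± 73.8 in cortical microglia) and 148 ± 85.7 in macrophages. Astrocytes were at 4.93 ± 1.16, neurons at 2.38 ± 0.645 and oligodendrocytes at 0.569 ± 0.505. By number of molecules, neurons, the most numerous class, held 32.0% of all deep brain *Slc40a1* UMIs, microglia 30.5% and endothelial nuclei 14.7%. The microglial share covers 1477 UMIs in all 3402 microglial nuclei, before those with markers of other cells were dropped. The 2275 nuclei behind the level held 988. The part of free RNA in the neuronal share was not tested. Mural nuclei held 0 *Slc40a1* UMIs of 331662, which allows up to 9.05 CPM (3 counts, counting error only). A UMI was found in 40.8% of endothelial and 31.5% of microglial nuclei but in 0.149% of oligodendrocyte nuclei (median depth 2670 UMIs), and after thinning to 1000 UMIs in 26.7%, 16.6% and 0.0572%.

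Both ferroxidase genes were measured in endothelial and mural nuclei, and each also in other classes. *Heph* was at 93.7 ± 20.4 CPM in astrocytes, 78.8 ± 32.0 in endothelial nuclei and 53.9 ± 22.5 in mural nuclei (n = 9), with overlap, and at 16.5 ± 3.70 in oligodendrocytes. *Cp* was at 616 ± 132 in fibroblasts, 458 ± 158 in mural nuclei, 407 ± 140 in endothelial nuclei, 272 ± 177 in macrophages and 165 ± 22.4 in precursors. Microglia (7.34 ± 3.36), oligodendrocytes (4.06 ± 1.47), astrocytes (3.46 ± 1.57) and neurons (1.76 ± 0.407) were far lower, and no deep brain precursor library (lowest 136) overlapped any of theirs (highest 12.2). Astrocytes, for which a membrane-anchored ceruloplasmin is known, were thus among the classes with the least *Cp* RNA in these nuclei.

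Of the regulators, *Ireb2* (IRP2) was at 130 ± 13.6 CPM in microglia, 113 ± 55.6 in macrophages, 112 ± 77.6 in mural nuclei, 74.7 ± 5.98 in oligodendrocytes and 66.7 ± 2.60 in neurons. The lowest deep brain microglial library (102) lay above the highest of oligodendrocytes (88.1), astrocytes (73.7) and neurons (70.4). *Aco1* (IRP1, which is the cytosolic aconitase when iron is plentiful) was at 76.1 ± 16.8 in forming oligodendrocytes, 47.4 ± 5.46 in astrocytes, 41.1 ± 2.57 in oligodendrocytes and 27.5 ± 1.77 in neurons.

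For each member, the genes with the most similar pattern over 19 combinations of class and region were found by Pearson's r of mean log2(CPM + 10). The points share libraries, so r is a description. *Slc40a1* was closest to *Lmo2* (0.97) and *Arap3* (0.97), *Cp* to *Grk5* (0.94) and *Akap12* (0.90), *Trf* to *Erbin* (0.94) and *Tmem63a* (0.92), and *Ftl1* to *Tln1* (0.93) and *Eif1* (0.91). *Slc11a2* was closest to *Mpv17l* (0.92) and *Dcaf11* (0.91), *Ireb2* to *Tgfbr1* (0.91) and *Snx18* (0.90), *Tfrc* to *Slc30a1* (0.89) and *Mrtfb* (0.85), and *Aco1* to *Farp2* (0.89) and *Snrpd1* (0.86). *Heph* was closest to *S1pr1* (0.89) and *Gstm1* (0.88), and *Fth1* to *Magt1* (0.85) and *Cmss1* (0.85).

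The first comparison asked whether iron genes differed between mutant and control mice in the vessel wall of the calcification-prone region. In deep brain endothelial nuclei the transferrin receptor gene was lower in mutants and no other member passed the test. *Tfrc* was at 727, 541, 605, 941, 357 and 609 CPM in controls 1 to 6 and at 265, 219, 429, 294, 245 and 325 in mutants 1 to 6. Every mutant but mutant 3 lay below every control, and only control 5 and mutant 3 crossed. The means were 630 ± 195 and 296 ± 74.9 (SD, n = 6 each), from 496 and 288 UMIs in 348 and 323 nuclei.

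*Tfrc* fell by 1.06 on the log2 scale (SE 0.21, 95% interval −1.50 to −0.62, unadjusted p = 4.89e-05, adjusted p = 0.0101) by edgeR's quasi-likelihood test with Benjamini-Hochberg adjustment. Of 3538 genes tested there, 1.53% passed in either direction and 10.6% had an unadjusted p under 0.05, and of the 7 members tested these were 1 and 2. The median log2 fold change was −0.19 over those 7 and −0.01 over all genes. *Slc11a2*, *Ftl1* and *Aco1* had too few UMIs to be tested, at 17, 44 and 44 UMIs in mutants and 17, 35 and 22 in controls. On simulated counts at these depths, 43% of genes changed 2-fold were called. The simulation drew genes of all levels and gave each the same spread, so this share does not describe a single member. For the other members tested, the intervals or standard errors given below show the precision.

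The same *Tfrc* values, split by age and given without a test, had the same direction in each part. They are the values behind the call, so they are no separate support for it. In mice 1 to 3 the means were 304 in mutants and 624 in controls and the groups did not overlap (highest mutant 429, lowest control 541). In mice 5 and 6 they were 285 and 483, again without overlap (325 and 357), and mouse 4 was at 294 and 941.

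**Figure D2:**
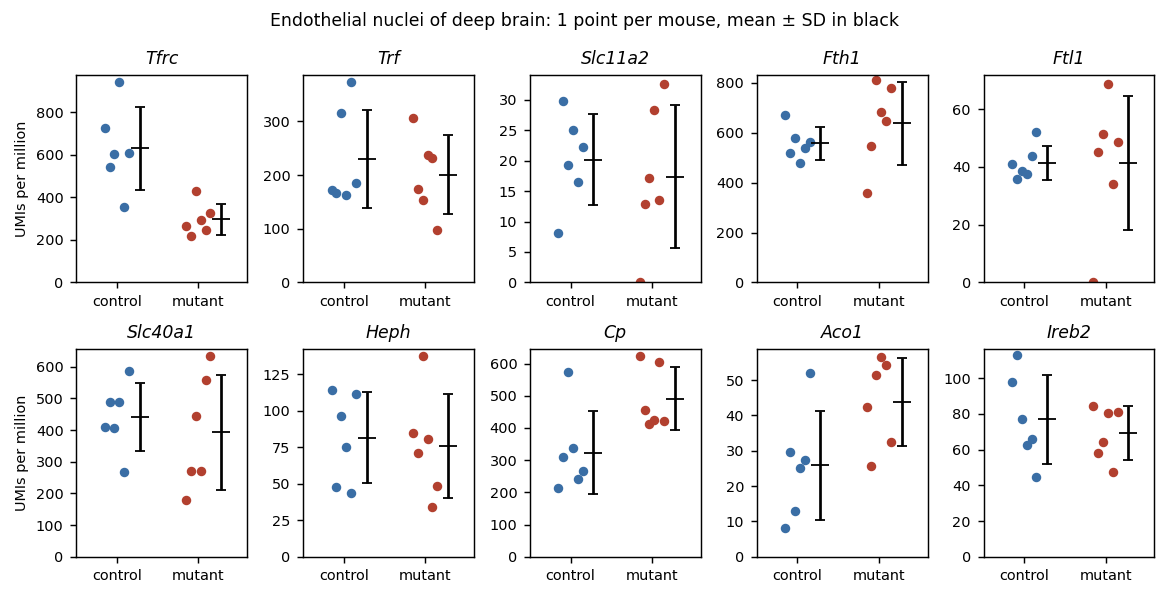
Level (CPM) of the 10 genes in deep brain endothelial nuclei of 6 control and 6 mutant mice, 1 point per mouse, with mean ± SD in black. *Tfrc* was at 357 to 941 in controls and 219 to 429 in mutants, and *Cp*, at 212 to 573 in controls and 412 to 624 in mutants, overlapped through control 3 only.

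Other features of the endothelial nuclei are given by genotype with no test. The summed level of 8 mural markers in them was 1054 to 3773 CPM in controls (median 2320) and 90.0 to 1482 in mutants (median 523), and the mural class itself had 152 control and 53 mutant nuclei. Mural nuclei carried *Tfrc* at 42.5 CPM, below every endothelial library. The summed level of 8 endothelial markers was 13595 to 19615 in controls and 15767 to 17956 in mutants. Summed levels of 6 arterial genes (*Bmx*, *Gkn3*, *Sema3g*, *Efnb2*, *Vegfc*, *Hey1*) were 264 to 811 in controls (median 366.5) and 578 to 1217 in mutants (median 970). Those of 5 venous genes (*Nr2f2*, *Slc38a5*, *Vwf*, *Vcam1*, *Icam1*) were 523 to 1402 (median 718) and 1217 to 2110 (median 1658). Those of 6 capillary genes (*Mfsd2a*, *Slc16a1*, *Slc7a5*, *Slc7a1*, *Rgcc*, *Spock2*) were 2611 to 4807 (median 4095) and 2518 to 3698 (median 2878). The genotypes overlapped in each of these lists. These lists were added after the data were seen, and the part of vessel type or mural RNA in the *Tfrc* difference was not tested.

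In the cortex, where endothelial nuclei were 3 to 33 per library, too few libraries reached 10 nuclei for the fit. Over all 12 cortical libraries *Tfrc* was at 190 ± 103 CPM in mutants and 415 ± 321 in controls (n = 6 each, 66 and 149 UMIs), and a two-sided exact permutation test of the mean difference, added after the data were seen, gave p = 0.134. Whether the difference between genotypes itself differs between regions was not tested in endothelial nuclei.

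*Cp* went the other way in deep brain endothelial nuclei and did not pass. It was at 212 to 573 CPM in controls (median 288) and 412 to 624 in mutants (median 440), means 324 ± 130 and 491 ± 97.5. The difference was 0.59 on the log2 scale (SE 0.22, adjusted p = 0.220 by edgeR's quasi-likelihood test with Benjamini-Hochberg adjustment). Control 3 was the highest control at 573, and without it the adjusted p was 0.0146. Over the 12 fits that each left out 1 mouse, the adjusted p of the same test ran from 0.0146 to 0.450, and only that 1 fit passed.

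The exporter *Slc40a1* was at 441 ± 107 CPM in controls and 393 ± 181 in mutants (−0.19 on the log2 scale, 95% interval −0.70 to 0.33), and *Fth1* at 558 ± 65.8 and 637 ± 166 (0.19, −0.18 to 0.57). The differences of *Trf* (−0.22, −0.73 to 0.30), *Ireb2* (−0.20, −0.74 to 0.34) and *Heph* (0.04, −0.61 to 0.68) had intervals on both sides of 0. Of 41 other iron genes on a wider pathway list, 11 were tested in endothelial nuclei and 0 were called by edgeR, with 2 under an unadjusted p of 0.05.

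**Figure D3:**
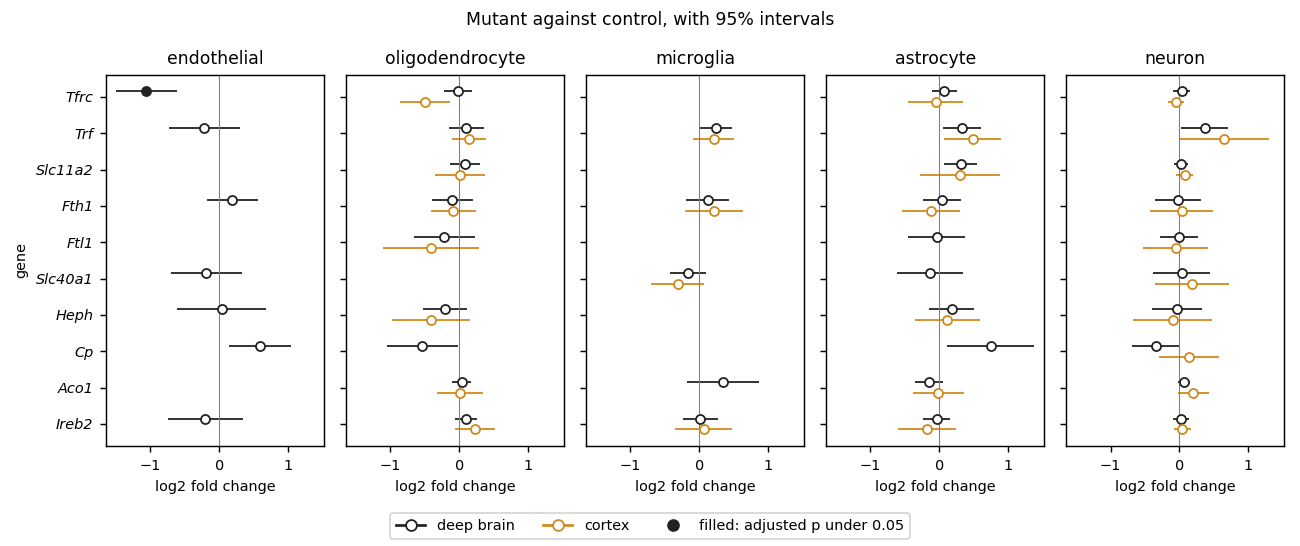
Log2 fold change of mutant against control for each member tested in 5 classes, deep brain in black and cortex in orange, with 95% intervals and filled points where the adjusted p was under 0.05. The single filled point is *Tfrc* in deep brain endothelial nuclei (−1.06), and endothelial nuclei of the cortex were not fitted.

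In oligodendrocytes of the deep brain, the class with the most transferrin, no member passed the test and the intervals of the differences were narrow for the abundant genes. *Trf* was at 2475 to 3193 CPM in controls (median 2557) and 2313 to 3473 in mutants (median 2640), and the difference was 0.10 on the log2 scale (95% interval −0.15 to 0.35). *Fth1* was at 685 ± 102 and 629 ± 162 (−0.10, −0.40 to 0.20), and *Tfrc* at 35.3 ± 4.50 and 34.2 ± 4.17 (−0.02, −0.22 to 0.18). Of 9 members tested, 0 passed by edgeR or by DESeq2, against 1.68% of 13523 genes by edgeR, and 1 was under an unadjusted p of 0.05, against 14.8% of genes. That gene was *Cp*, at 3.47 to 6.40 CPM in controls and 2.38 to 6.39 in mutants (351 UMIs in all). Its adjusted p was 0.309 by edgeR's quasi-likelihood test with Benjamini-Hochberg adjustment, and 0.0171 without mutant 6, its highest mutant. Over the 12 fits that each left out 1 mouse it ran from 0.0171 to 0.509, and only that 1 fit passed. Of the other iron genes edgeR called 0 and DESeq2 called 1, the mitochondrial iron importer *Slc25a37* (0.53, adjusted p = 0.0247, and 0.0718 by edgeR). DESeq2 called 494 of all 13523 genes.

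Cortical oligodendrocytes gave a lower mutant mean for *Tfrc* that did not pass. It was at 43.3 to 53.8 CPM in controls (median 46.1) and 15.6 to 48.0 in mutants (median 32.9), −0.49 on the log2 scale (SE 0.17). By edgeR's quasi-likelihood test with Benjamini-Hochberg adjustment the adjusted p was 0.211, and 0.0326 with the replicate number as a block, which pairs mice of the same age for numbers 1 to 4 but not for 5 and 6. Of 8 members tested, 0 passed by edgeR or DESeq2 (1 under an unadjusted p of 0.05), against 1.07% of 10059 genes (13.1% unadjusted). *Trf* was at 2951 ± 499 and 3166 ± 368 (0.14, −0.10 to 0.38). Of the other iron genes 18 were tested, and 1 was called: *Slc22a17*, a receptor for iron-carrying lipocalin, fell by 0.71 (adjusted p = 0.00373).

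Microglia, the cells that gather at calcifications in this model, showed no called iron gene. In the deep brain *Slc40a1* was at 152 to 264 CPM in controls (median 211) and 149 to 231 in mutants (median 176), −0.16 on the log2 scale (95% interval −0.42 to 0.10). *Trf* was at 330 to 499 (median 368) and 396 to 558 (median 465), 0.25 (0.01 to 0.48), with adjusted p = 0.759 by edgeR's quasi-likelihood test with Benjamini-Hochberg adjustment. *Fth1* was at 280 ± 57.7 and 301 ± 90.9. Of 5 members tested, 0 were called by edgeR or DESeq2 and 1 was under an unadjusted p of 0.05, where 0.137% of 7288 genes were called and 6.22% were under that p.

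In cortical microglia 4 members were tested and 0 were called by edgeR or DESeq2, none being under an unadjusted p of 0.05, against 0.145% of 2762 genes (6.26% unadjusted). *Slc40a1* was at 180 to 402 CPM in controls (median 281) and 192 to 371 in mutants (median 219), −0.32 on the log2 scale (95% interval −0.70 to 0.07).

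When deep brain microglia were clustered again, 5 groups formed. The largest (1476 nuclei) had no listed microglial gene among its leading genes. Cluster 1 (544 nuclei, 210 of them from mutant 4) was led by neuronal genes and cluster 2 (118) by mitochondrial genes. All 6 listed homeostatic microglia genes were above the other nuclei in the largest group and in cluster 2, against 0 of 6 in cluster 4. Cluster 3 (72 nuclei, 53 mutant and 19 control) was interferon-microglia-like, with *Oasl2* and *Ifi204* among its leading genes. Cluster 4 (65 nuclei, 56 mutant and 9 control) was led by *Mki67*, *Lpl* and *Top2a*, had all 11 listed genes of calcification-associated microglia and all 4 proliferation genes above the other nuclei, and was left without a name.

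*Slc40a1* was at 210 CPM in the largest group (95% counting interval 195 to 226), 180 in cluster 1 and 201 in cluster 2, but 108 in cluster 3 (18 UMIs, 63.9 to 170) and 72.2 in cluster 4 (14 UMIs, 39.5 to 121). *Slc11a2* was at 18.6 in the largest group (14.3 to 23.8), 22.4 in cluster 1, 11.8 in cluster 2, 47.9 in cluster 3 (8 UMIs, 20.7 to 94.5) and 61.9 in cluster 4 (12 UMIs, 32.0 to 108). Over the 3 libraries with at least 10 nuclei of a small group, all mutant, *Slc40a1* was at 97.3 ± 39.8 in cluster 3 and 84.7 ± 56.0 in cluster 4, below the 188 ± 42.6 of mutant libraries in the largest group (n = 6). *Slc11a2* did not keep its order there: it was at 9.25 ± 16.0 in cluster 4, 29.5 ± 27.7 in cluster 3 and 23.6 ± 7.76 in mutant libraries of the largest group, so its pooled level in cluster 4 rests on libraries with fewer nuclei. *Fth1* was at 252, 345, 560, 216 and 372 in clusters 0 to 4 and *Trf* at 422, 487, 473, 407 and 341. The clusters come from the same nuclei, the intervals cover counting error only, and no test was made. In the largest group *Slc40a1* was at 147 to 290 CPM in control and 121 to 249 in mutant libraries.

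In astrocytes no member passed the genotype test. In the deep brain, 10 were tested and 0 called by edgeR or DESeq2 (3 under an unadjusted p of 0.05), against 5.0% of 12775 genes (18.3% unadjusted). Those 3 were *Trf* (0.33 on the log2 scale, adjusted p = 0.166), *Slc11a2* (0.31, adjusted p = 0.147) and *Cp* (0.75, adjusted p = 0.179) by edgeR's quasi-likelihood test with Benjamini-Hochberg adjustment. Of 26 other iron genes tested, 2 were called, both lower in mutants: *Bmp6*, the signal that raises hepcidin when iron is high, by 1.33 (adjusted p = 0.00812), and the zinc and iron importer *Slc39a14* by 0.47 (adjusted p = 0.0444, lost in 10 of 12 fits that left out a mouse). In the same astrocytes the summed level of fibroblast markers was 75.9 to 113 CPM in controls (median 106) and 49.1 to 72.4 in mutants (median 62.6), without overlap, and that of mural markers 113 to 211 (median 170) and 95.7 to 211 (median 117). The part of such RNA in these 2 differences was not tested.

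In cortical astrocytes 7 members were tested and 0 called by edgeR or DESeq2 (1 under an unadjusted p of 0.05, *Trf*, 0.48 on the log2 scale), against 2.29% of 6724 genes (12.6% unadjusted). In deep brain neurons 10 were tested and 0 called by edgeR or DESeq2 (1 under an unadjusted p of 0.05, *Trf*, 0.36), against 0.283% of 19787 genes (12.0% unadjusted). DESeq2 called 539 of the 19787 genes there, and 1 of the other iron genes was among them. It was *Fbxl5*, part of the ligase that degrades IRP2 (−0.15, adjusted p = 0.00760), which edgeR did not call (adjusted p = 0.144). In cortical neurons 10 were tested and 0 called by either tool (1 under an unadjusted p of 0.05, *Trf*, 0.65), where 0.0% of 16629 genes were called by edgeR, 1146 genes (6.89%) were under an unadjusted p of 0.05 and DESeq2 called 18. The neuronal *Tfrc* differences were 0.03 (95% interval −0.09 to 0.16) in the deep brain and −0.05 (−0.17 to 0.06) in the cortex.

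The second comparison set deep brain against cortex in control mice. Its fit treats the 2 libraries of a mouse as independent, and a fit with the mouse as a block was an alternative. With that block, the only member whose call changed was *Fth1* in astrocytes, given below. In oligodendrocytes 1 of 9 members tested was called, against 6.13% of 12643 genes, and that gene was the 1 under an unadjusted p of 0.05 (18.2% of all genes). *Tfrc* was at 43.3 to 53.8 CPM in the cortex (median 46.1) and 29.5 to 40.8 in the deep brain (median 36.6). The regions did not overlap and the deep brain was lower in 6 of 6 control mice, but in 2 of 6 mutant mice. *Tfrc* fell by 0.43 on the log2 scale from cortex to deep brain (SE 0.11, adjusted p = 0.0221 by edgeR's quasi-likelihood test with Benjamini-Hochberg adjustment), and without the filter on low counts the adjusted p was 0.0661. Over both genotypes oligodendrocytes had a median of 2659 UMIs per nucleus in the cortex and 2670 in the deep brain. Of 20 other iron genes tested, *Steap2*, an endosomal metalloreductase, was higher in the deep brain (1.06, adjusted p = 0.0383, and 0.0565 by DESeq2) and *Slc22a17* was lower (−0.29, adjusted p = 0.0328, and 0.173 without the filter). DESeq2, which called 983 of the 12643 genes, also called the heme transporter *Slc48a1* (0.22, adjusted p = 0.0467), which edgeR did not (0.23, adjusted p = 0.117).

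In control astrocytes 3 of 9 members tested were called, against 10.6% of 11775 genes, and 4 were under an unadjusted p of 0.05 (21.9% of all genes). *Heph* was at 32.6 to 88.3 CPM in the cortex (median 44.7) and 61.1 to 111 in the deep brain (median 89.5), higher in the deep brain in 6 of 6 control and in 6 of 6 mutant mice. It rose by 0.87 on the log2 scale (SE 0.21, adjusted p = 0.00977 by edgeR's quasi-likelihood test with Benjamini-Hochberg adjustment). Over both genotypes, 55.65% of cortical *Heph* UMIs (3525) lay in nuclei set aside as mixed, against 12.8% in the deep brain. Named cortical astrocytes held 346. Over all kept nuclei the median *Heph* level was 18.1 CPM in cortical and 14.1 in deep brain libraries. The part of the nuclei set aside in this difference was not tested. *Trf* was at 27.6 to 56.8 in the cortex and 69.1 to 134 in the deep brain, without overlap, a rise of 1.30 (SE 0.19, adjusted p = 5.02e-05). In the same fit the oligodendrocyte genes *Mag* and *Mog* were higher in the deep brain too, by 1.48 (adjusted p = 0.000186) and 1.29 (adjusted p = 0.00373), and the part of oligodendrocyte RNA in the *Trf* difference was not tested.

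*Slc40a1* in control astrocytes was at 2.51 to 29.7 CPM in the cortex (median 11.7) and 4.12 to 6.12 in the deep brain (median 5.12), lower in the deep brain in 4 of 6 mice, and fell by 1.24 (SE 0.36, adjusted p = 0.0311 by edgeR's quasi-likelihood test with Benjamini-Hochberg adjustment). The summed level of microglial markers in the same control astrocytes was 60.1 to 153 in the cortex (median 109) and 64.1 to 94.0 in the deep brain (median 76.6), and that of endothelial markers 2.51 to 56.4 (median 9.22) and 10.3 to 35.7 (median 19.9). Astrocytes of both genotypes held 79 *Slc40a1* UMIs in 1583 cortical nuclei and 176 in 10437 deep brain nuclei, so single cortical libraries rest on few molecules. Their median was 3992 UMIs per nucleus in the cortex and 3248 in the deep brain, and the part of depth or of RNA from other classes was not tested. *Fth1* differed by −0.33 (adjusted p = 0.152, and 0.0395 with the mouse as a block). Of 24 other iron genes tested, *Bmp6* (−0.87, adjusted p = 0.0157) and *Slc48a1* (−0.41, adjusted p = 0.0463, 0.154 without the filter and 0.0549 with the mouse as a block) were lower in the deep brain and none was called higher. Fibroblast markers in these astrocytes were at 123 to 209 in the cortex (median 146) and 75.9 to 113 in the deep brain (median 106), and their part was not tested.

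**Figure D4:**
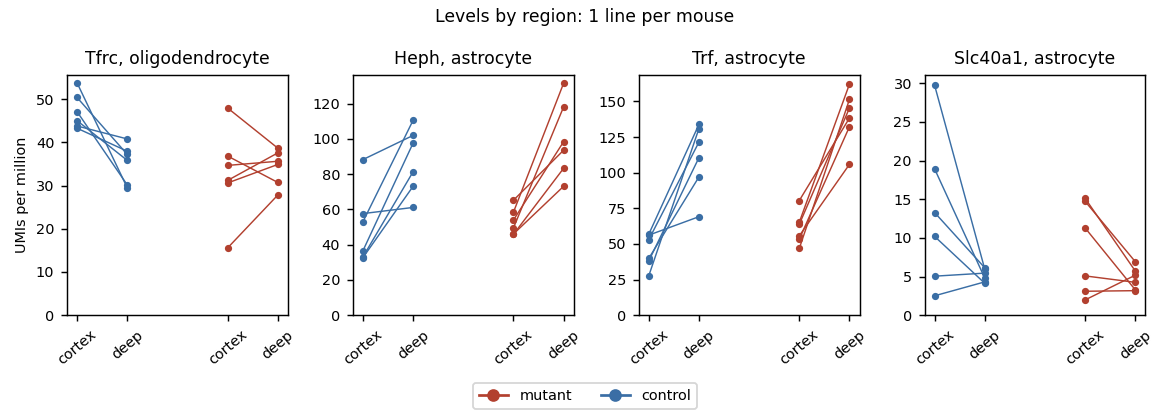
Level (CPM) of *Tfrc* in oligodendrocytes and of *Heph*, *Trf* and *Slc40a1* in astrocytes, in cortex and deep brain libraries joined by 1 line per mouse, control in blue and mutant in red. *Tfrc* was lower in the deep brain in 6 of 6 control and 2 of 6 mutant mice, and *Heph* and *Trf* were higher in the deep brain in every mouse of both genotypes.

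In control microglia 4 members were tested and 0 called by edgeR or DESeq2, 2 being under an unadjusted p of 0.05, against 2.29% of 6211 genes (10.5% unadjusted). *Slc40a1* was at 180 to 402 CPM in the cortex and 152 to 264 in the deep brain (−0.49 on the log2 scale, SE 0.16), with adjusted p = 0.117 by edgeR's quasi-likelihood test with Benjamini-Hochberg adjustment. *Fth1* was at 199 ± 57.6 and 280 ± 57.7 (0.44, SE 0.16, adjusted p = 0.227).

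The last comparison asked whether the genotype difference itself differed between deep brain and cortex. By edgeR, 0.0% of genes were called in oligodendrocytes (13603 tested), microglia (8360) or astrocytes (12316), with 442, 284 and 612 genes (3.25%, 3.4% and 4.97%) under an unadjusted p of 0.05, and DESeq2 called 3, 0 and 2 genes, none of them a member. *Tfrc* in oligodendrocytes had an interaction of 0.47 on the log2 scale, with unadjusted p = 0.0210 and adjusted p = 0.9998 by edgeR's quasi-likelihood test. That fit treats the 2 libraries of a mouse as independent, although they deviated together. With the mouse as a block, 4, 0 and 0 genes were called, none of them a member, and *Tfrc* in oligodendrocytes was at 0.50 with unadjusted p = 0.00554 and adjusted p = 0.930. Endothelial nuclei could not be fitted for this question or for the difference between regions.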

How the data were processed

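Single nuclei were captured with 10x Genomics 5′ v2 chemistry. The authors deposited, per library, a matrix of raw UMI counts per gene and nucleus, made with bcl2fastq 2.20.0.422 and Cell Ranger 5.0.1 with introns included on mm10 and not normalized. Nuclei with over 500 and under 7000 genes and under 20% mitochondrial UMIs were kept, as in the study. Nuclei of each region were scaled to 1000 UMIs, clustered with Seurat 5.3.0 (2000 variable genes, 20 components, first resolution 0.01), and split again. Clusters were named from marker lists by rules set after the clusters were seen, and those with markers of a second class were set aside as mixed. Doublets were treated that way, and removal by Scrublet (scanpy 1.11.5) was an alternative in the deep brain. Following the study, microglial nuclei were dropped where they held any UMI of *Rbfox3*, *Aqp4*, *Mbp* or *Mrc1*.

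Counts were summed per library and class (at least 10 nuclei, at least 3 libraries per genotype) and tested with edgeR 4.0.16 (R 4.3.3; glmQLFTest, filterByExpr, TMM, Benjamini-Hochberg over all genes tested, threshold 0.05), with DESeq2 1.42.0 as an alternative. Endothelial nuclei of the cortex, of the regions in controls and of the interaction could not be fitted. The genes to name were the 10 members and, of 41 other iron genes, those past the threshold. Where a comparison called no member, some members are given by their count only. The members and lists were chosen with earlier results of these data known, and which measured values entered the choice is not given in the sources used here, so the tests are not independent of it. The exact permutation test of *Tfrc*, its values by age and the vessel type lists were added after the data were seen. Each mouse is 1 replicate. The deep brain and cortex of a mouse come from 1 animal, and their deviations from the group means correlated at 0.24 to 0.76 in oligodendrocytes, 0.17 to 0.60 in astrocytes and 0.07 to 0.50 in microglia. The pipeline was tested on simulated data: edgeR called 43% of genes changed 2-fold and 96% of genes changed 4-fold in endothelial sums, 53% and 99% in oligodendrocyte sums, and 46% and 99% in microglial sums of the deep brain. Precision follows from 23625232 to 96459036 UMIs per library and, for low values, from the UMI counts of the gene, which are given beside some of them only.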

Additional observations from a re-analysis of the deposited data

Results flagged for a closer look

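Of 140 groups of 6 libraries, 15 (10.7%) held 1 library far from the others, where chance gives about 1 in 20. All values are CPM (UMIs of a gene per 1000000 UMIs of the class). In deep brain endothelial nuclei *Cp* was at 573 in control 3 and 212 to 339 in the other controls, and in deep brain oligodendrocytes it was at 6.39 in mutant 6 and 2.38 to 2.96 in the other mutants. Both libraries lie on the side of the other genotype, and leaving out either moves *Cp* past the threshold in that class. No other fit that left out a mouse did so there.

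*Trf* was at 3193 in deep brain oligodendrocytes of control 3 (others 2475 to 2728), at 574 in cortical microglia of mutant 3 (others 359 to 424) and at 60.9 in cortical neurons of mutant 1 (others 14.5 to 29.2). *Slc40a1* was at 371 in cortical microglia of mutant 2 (others 192 to 245), and *Heph* at 3.39 in cortical neurons of control 5 (others 6.69 to 7.80).

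*Aco1* in astrocytes was at 37.8 in the cortex of control 2 (others 56.8 to 63.0), at 58.0 in the deep brain of control 1 (others 46.1 to 49.7) and at 56.6 in the deep brain of mutant 5 (others 39.7 to 45.1). It was also at 20.3 in deep brain microglia of control 6 (others 26.7 to 30.03) and at 35.01 in deep brain oligodendrocytes of control 4 (others 41.4 to 43.1). *Ireb2* was at 56.0 in deep brain astrocytes of control 6 (others 67.1 to 73.7), at 185 in cortical microglia of mutant 1 (others 98.2 to 128) and at 102 in deep brain microglia of mutant 4 (others 133 to 140).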

How the results depend on the processing

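The *Tfrc* difference in deep brain endothelial nuclei was −0.93 to −1.21 on the log2 scale with adjusted p of 0.000168 to 0.0322 over all its refits (edgeR's quasi-likelihood test or DESeq2), the same call each time. Over all members, 118 log2 fold changes were refitted 1293 times. The sign changed in 57 fits, none of a fold change above 0.25, a call was gained in 4 and lost in 1, and those 5 are given beside their results. The sign of *Heph* in deep brain endothelial nuclei turned with the replicate block (−0.00405), with DESeq2 (−0.0158) and when a mouse was left out (−0.27 to 0.18). It turned for *Tfrc* in deep brain oligodendrocytes (−0.0716 to 0.0275 with a mouse left out), for *Fth1* in deep brain microglia (−0.00323 to 0.20) and for *Ireb2* there (−0.0332 to 0.0803, −0.0117 with all microglial nuclei kept and −0.00854 without control 6). None of these 4 was called in any fit.

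Counts of called genes moved more. With the replicate block, in which same-numbered mutant and control mice are paired, they were 538 in cortical oligodendrocytes, 33 in cortical microglia, 301 in cortical astrocytes and 181 in deep brain neurons. For the oligodendrocyte interaction, where the block is the mouse, the count was 4. The labels give the numbers no meaning of their own, and same-numbered mice share their age for numbers 1 to 4 but not for 5 and 6. The correlation of same-numbered mice was above 0.1 in 2 to 6 of 6 pairs over 9 class and region sets (range −0.33 to 0.75). It was so in all 6 in cortical neurons, 5 in oligodendrocytes of each region and 2 in deep brain endothelial nuclei. For 2 to 4 of the 6 mutants of a set, the control of the same number correlated best of the 6 controls. Without the filter on low counts the counts were 164 (endothelial, deep brain), 194 (oligodendrocytes, cortex), 83 and 64 (microglia, deep brain and cortex), 346 (astrocytes, cortex), and 1 and 1 (microglial and astrocyte interactions). With DESeq2 they were 494 and 207 (oligodendrocytes, deep brain and cortex), 9 (microglia, cortex), 539 and 18 (neurons, deep brain and cortex), and 3 and 2 (oligodendrocyte and astrocyte interactions). With all microglial nuclei kept they were 17 and 16 (deep brain and cortex) and 234 (regions in controls), and a first clustering at 0.1 gave 1 in cortical neurons. With 1 mouse left out they were 38 to 107 (endothelial, highest without control 3), 110 to 514 and 48 to 171 (oligodendrocytes, deep brain and cortex, both highest without mutant 6), 8 to 14 and 4 to 20 (microglia), and 352 to 1060 and 97 to 243 (astrocytes). The cause was not tested. Scrublet removal was not run in the cortex, where it called 0.03% to 50% of nuclei, and the endothelial comparisons in the cortex, between regions and for the interaction gave no value. Depth limits the endothelial class, with 24 to 78 nuclei per deep brain library.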

Other observations

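*Bmp6*, which is also made by endothelial cells and signals to the iron hormone hepcidin, was at 67.5 CPM in control and 238 in mutant deep brain endothelial nuclei (n = 6 each). The difference was 1.86 on the log2 scale with adjusted p = 0.0533 by edgeR's quasi-likelihood test with Benjamini-Hochberg adjustment, so it did not pass, and over its alternatives the adjusted p ran from 1.29e-10 to 0.276. Without control 3 the control mean was 43.7 and the difference 2.66 (adjusted p = 0.00183). In deep brain astrocytes *Bmp6* fell by 1.33 (adjusted p = 0.00812). The gene was chosen here after its values were seen, and whether the 2 classes differ was not tested.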
